A study of Danio rerio with 4 samples.

Results

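Genes made by Sertoli cells, the somatic nurse cells of the testis, and transcription factors of gonadal sex were followed in testis RNA of adult zebrafish exposed to phthalates. The set was chosen by symbol, in any case and with the copy letter allowed to be missing: amh, gsdf, dmrt1, wt1a, wt1b, sox9a, sox9b and gata4. It came to 8 Ensembl genes of the 35066 listed. The gene name table gave them as amh, gsdf, DMRT1, WT1, wt1b, gata4 and a pair of genes that are both called SOX9. The SOX9 genes are therefore told apart here by identifier (ENSDARG00000043923 and ENSDARG00000003293), and WT1 (ENSDARG00000031420) is the entry without a copy letter beside wt1b (ENSDARG00000007990). The other identifiers are ENSDARG00000014357 for amh, ENSDARG00000075301 for gsdf, ENSDARG00000007349 for DMRT1 and ENSDARG00000098952 for gata4. None of the 8 shared its values with another identifier.

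The fish were wild type, of the AB laboratory line, 5 months old and male by their labels, although the design text of the series calls them female. One group was exposed to dibutyl phthalate (DBP), one to diisobutyl phthalate (DiBP) and one to both (DBP+DiBP), for 30 days, and the remaining group was labelled control. DBP and DiBP are plasticizers and isomers, with linear butyl chains in DBP and branched ones in DiBP. Doses, the vehicle and the number of fish per library were not given in the sources used here. Each group was 1 library, so no value has a replicate error, no test was run, and every difference describes these 4 libraries only.

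Anti-Müllerian hormone (amh) and gonadal soma derived factor (gsdf) are secreted proteins of the TGF-beta family. In fish gonads amh comes from Sertoli cells and restrains germ cell accumulation and differentiation, and gsdf comes from the somatic cells that touch germ cells, Sertoli cells in the testis and granulosa cells in the ovary. The DM domain factor Dmrt1 is needed for male development in zebrafish and is found in germ cells as well as Sertoli cells. Wt1, Sox9 and Gata4 are transcription factors that act in the gonadal soma of vertebrates, where Sox9 and Gata4 are known from mammals to drive amh, but they also act elsewhere: Wt1 in kidney podocytes, Sox9 in cartilage, and Gata4 in heart, gut and liver.

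Expression was given as FPKM (sequenced fragments divided by transcript length and by library depth), a unit inferred from the values. FPKM summed to between 547485 and 605447 per library, and read numbers were not given, so counting error is unknown. The Leydig cell hormone insl3 stood between 293 and 2455 FPKM and the sperm flagellum gene TEKT1 between 269 and 498, so genes of testis cells were present in all 4 libraries. Of 10 oocyte genes with a row, org stood at 130 to 294 FPKM and the others stayed under 10 FPKM in every library. The DBP+DiBP library stood apart: 13 gut marker genes summed to 6871 FPKM there, 1.13% of its total, and to between 8.95 and 46.2 FPKM in the other libraries. Because FPKM is relative to the whole library, RNA from one source lowers the values of all others.

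amh was lower in every exposed library than in control. It stood at 79.1 FPKM in control, 52.6 after DBP, 42.7 after DiBP and 31.3 after both. The differences from control in log2(FPKM + 1) were -0.58 after DBP, -0.88 after DiBP and -1.31 after both, and those past 1 in size (2-fold) are called here. Only the DBP+DiBP library passed 2-fold, where amh was at 0.396 of its control level. In bulk RNA, fewer Sertoli cells and less amh RNA per cell cannot be told apart.

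The other Sertoli ligand differed in the opposite direction. gsdf stood at 55.0 FPKM in control, 95.0 after DBP, 89.9 after DiBP and 339.6 after both. DBP and DiBP lay close to each other, at 1.73 and 1.64 times control and under the 2-fold line (log2 0.78 and 0.70). DBP+DiBP was 6.18 times control (log2 2.61) and more than 3 times either single exposure. Of the 23405 features compared, 98.0% had a lower ratio of DBP+DiBP to control than gsdf. With this, gsdf went from position 1369 among the Ensembl genes detected in control to position 225 in DBP+DiBP.

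DMRT1 was level in control and the single exposures and lower with both phthalates. Its FPKM was 105 in control, 112 after DBP, 106 after DiBP and 54.4 after both. The log2 differences from control were 0.10 after DBP, 0.01 after DiBP and -0.94 after both, so the last stopped just short of 2-fold. Of 13 germ cell genes compared, 5 were lower in DBP+DiBP than in control, such as DAZL, an RNA-binding protein of the germ line (77.6 FPKM against 184), and PIWIL1, which binds piRNAs (64.4 against 183). The dynein gene dnah9 was the 1 higher, at 14.7 FPKM against 6.83. Its call was lost under at least 1 other scaling, as was that of DDX4 among the 5 lower. Of all features, 6.42% were lower and 9.57% higher in DBP+DiBP than in control. The ratio of DMRT1 to DAZL was 0.570 in control, 0.564 after DBP, 0.598 after DiBP and 0.701 after both. Its ratio to the germ line helicase gene DDX4 was 0.299, 0.448, 0.405 and 0.325 in the same order. DAZL and DDX4 were both among the 5 lower in DBP+DiBP. The germ cell genes compared outside those 5 fell less than DMRT1 or rose, such as PIWIL2 (log2 -0.53), TEKT1 (-0.20) and stag3 (0.17). Relative to those genes DMRT1 was lower in DBP+DiBP than in control.

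**Figure D1:**
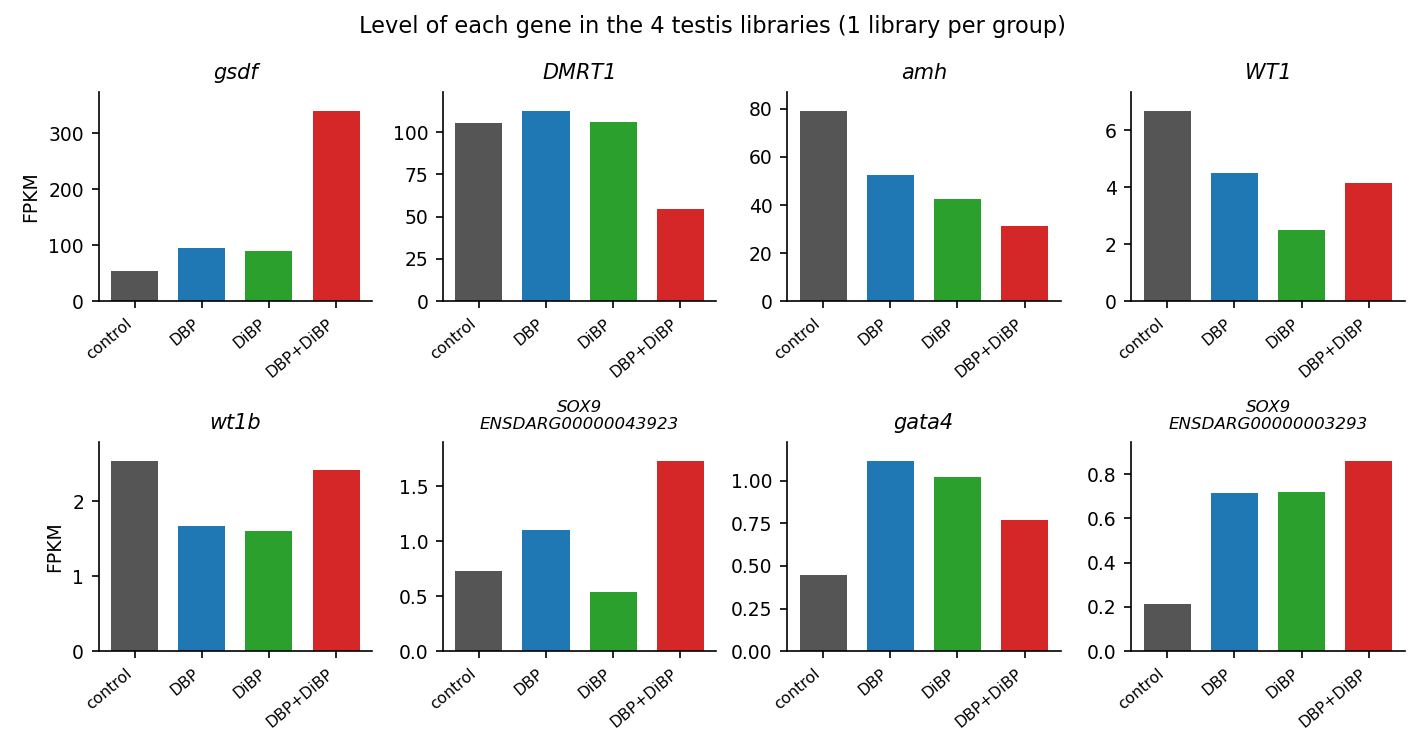
FPKM of the 8 genes in the control, DBP, DiBP and DBP+DiBP libraries, 1 bar per library and a separate axis from 0 for each gene, so there are no error bars. gsdf reaches 339.6 FPKM in DBP+DiBP, while amh steps down from 79.1 to 31.3 and DMRT1 is lowest in DBP+DiBP at 54.4.

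The Wt1 genes were expressed far below the ligands, and WT1 was lowest in DiBP. WT1 stood at 6.67 FPKM in control, 4.50 after DBP, 2.49 after DiBP and 4.15 after both. Its log2 difference from control was -0.48 after DBP, -1.13 after DiBP and -0.57 after both, past 2-fold in DiBP only. The second copy, wt1b, had 2.53 FPKM in control, 1.67 after DBP, 1.60 after DiBP and 2.41 after both, all within 2-fold of control. Both copies were thus lower in the single exposures, but in DBP+DiBP wt1b was near its control value. Its difference there, -0.05, turned positive in 1 of 8 alternatives, which was scaling by median ratios. WT1 exceeded wt1b in each library, by 2.63 times in control, 2.70 after DBP, 1.56 after DiBP and 1.72 after both. The slit diaphragm gene NPHS1, which marks the kidney podocytes that also use Wt1, stood between 2.06 and 3.41 FPKM.

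The SOX9 genes and gata4 were near the limit of what was compared. SOX9 ENSDARG00000043923 stood at 0.731 FPKM in control, 1.104 after DBP, 0.542 after DiBP and 1.73 after both, and it averaged at least 1 FPKM only because of DBP+DiBP. SOX9 ENSDARG00000003293 had 0.214 FPKM in control, 0.713 after DBP, 0.718 after DiBP and 0.859 after both. All 3 exposed libraries were thus above control, at 3.33, 3.35 and 4.01 times its FPKM, but from a control level above that of only 18.9% of detected Ensembl genes. gata4 showed the same order between control and the rest, with 0.448 FPKM in control, 1.11 after DBP, 1.02 after DiBP and 0.766 after both. Adding 1 to each value shrinks such differences, and on that scale none of these 3 genes differed from control by 2-fold. Without known read numbers, the counting error of such low values cannot be given.

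The counts past 2-fold are set here beside those over all features. Features needed a mean of at least 1 FPKM over the 4 libraries to be compared, which 6 of the 8 did (not gata4 and SOX9 ENSDARG00000003293). In DBP 0 of the 6 were higher and 0 lower, beside 6.68% and 4.50% of the 23405 features, and their median log2 difference was -0.15 against 0.05 for all features. In DiBP 0 were higher and 1 lower (WT1), beside 4.60% and 3.86%, with medians of -0.30 and -0.01. In DBP+DiBP 1 was higher (gsdf) and 1 lower (amh), beside 9.57% and 6.42%, with medians of -0.31 and -0.11. With all 8 genes counted the medians were 0.19, -0.08 and 0.12. Without SOX9 ENSDARG00000043923, which was compared only because of DBP+DiBP, they were -0.41, -0.44 and -0.57 over 5 genes. In groups this small such counts say nothing of the set as a whole, and the 3 comparisons share the control library.

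**Figure D2:**
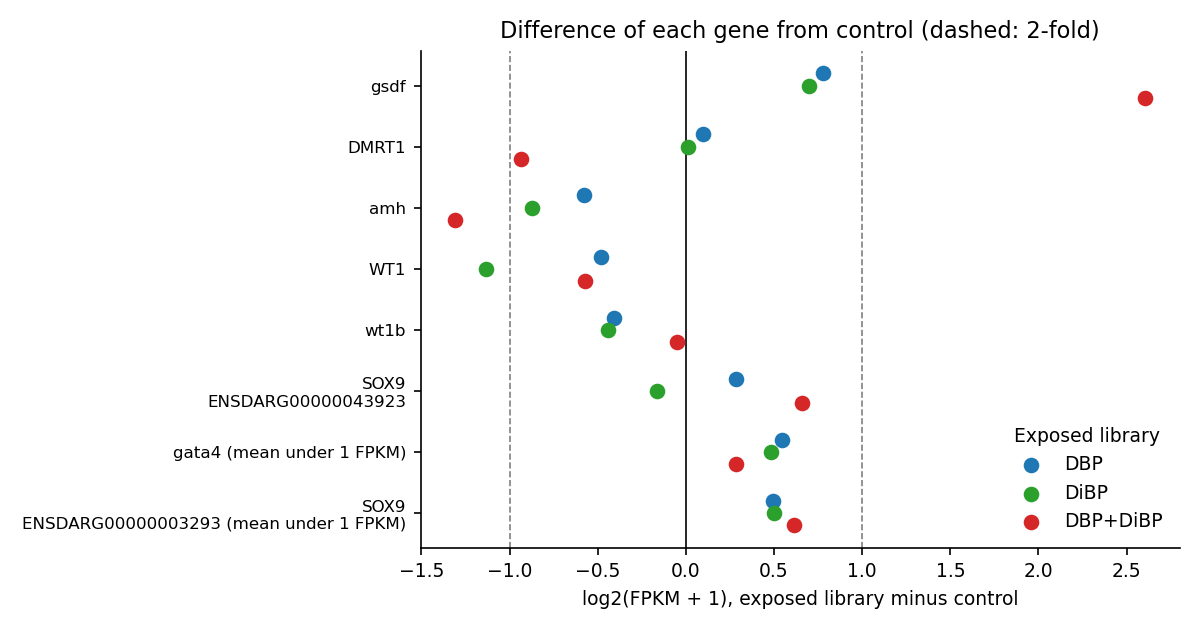
Difference from control in log2(FPKM + 1) of each of the 8 genes in the DBP, DiBP and DBP+DiBP libraries, with dashed lines at 2-fold and 1 point per library. Beyond the dashed lines lie gsdf in DBP+DiBP at 2.61, amh in DBP+DiBP at -1.31 and WT1 in DiBP at -1.13.

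**Figure D3:**
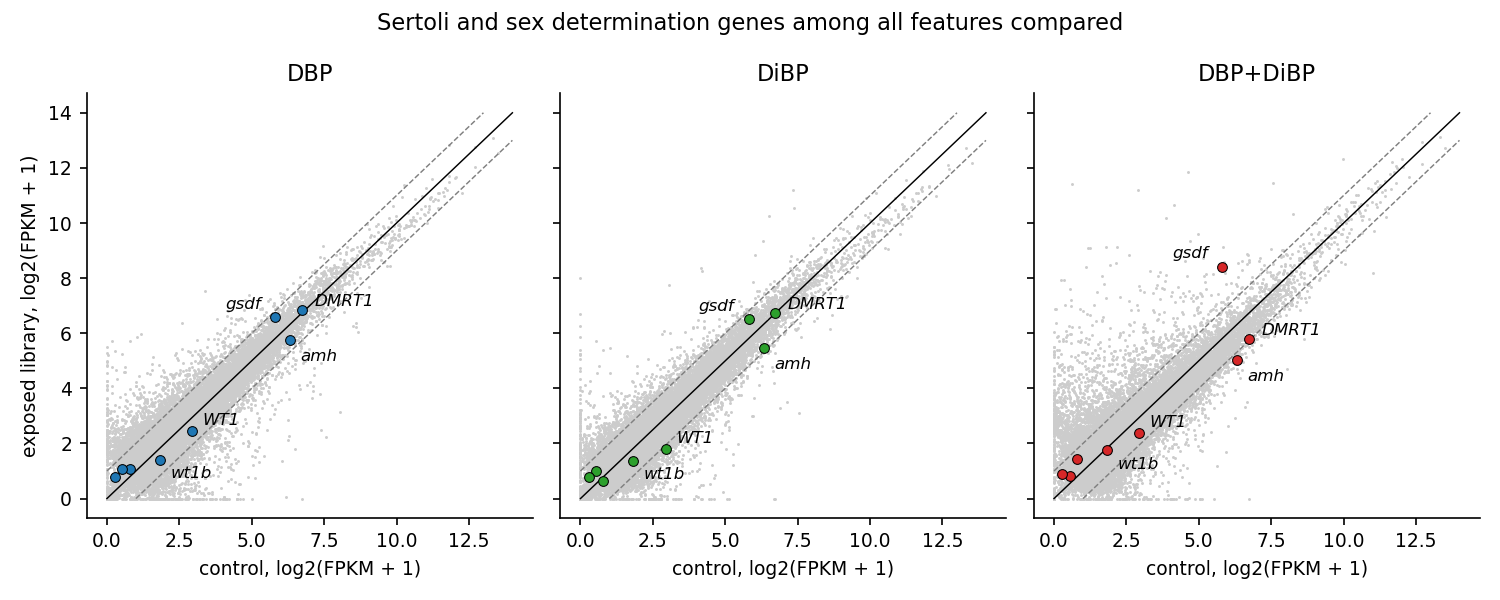
Level in each exposed library against control, both as log2(FPKM + 1), for the 23405 features compared (grey) and the 8 genes (coloured), with the line of equality and dashed lines at 2-fold. In the DBP+DiBP panel gsdf lies above and amh below the dashed lines, and in the DBP and DiBP panels both lie within them.

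On the log2(FPKM + 1) scale DBP and DiBP lay within 2-fold of each other for these genes, and whether their doses matched is not known. DiBP against DBP, 0 of the 6 compared were higher and 0 lower, beside 2.65% and 4.32% of all features. The difference in log2(FPKM + 1) was -0.08 for gsdf, -0.08 for DMRT1, -0.04 for wt1b and -0.30 for amh, and the first 3 of these changed sign under at least 1 other scaling. The widest was that of WT1, -0.65, with 2.49 FPKM in DiBP and 4.50 in DBP. SOX9 ENSDARG00000043923 had a difference of -0.45, at 0.542 and 1.104 FPKM. With 1 library each, no interval can be set on these differences, so they do not show that the isomers act alike.

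The joint exposure was more than 2-fold above both single exposures in gsdf. Against DBP, 1 of the 6 genes was higher (gsdf, log2 1.83) and 1 lower (DMRT1, log2 -1.03), beside 10.2% and 11.3% of all features. The call for DMRT1 rested on the scaling, since its difference was -0.86 after scaling by median ratios and -0.99 with equal 75th percentiles. Against DiBP, 1 was higher (gsdf, log2 1.91) and 0 lower, beside 10.5% and 8.19%. DMRT1 was at -0.95 in that comparison. amh differed by -0.73 from DBP and by -0.43 from DiBP, under 2-fold in both.

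Ratios between genes of one library do not depend on how libraries are scaled. The ratio of gsdf to amh was 0.695 in control, 1.81 after DBP, 2.11 after DiBP and 10.8 after both. Control was thus the only library in which amh exceeded gsdf. The order of the 3 abundant genes changed accordingly, from DMRT1, amh, gsdf in control to DMRT1, gsdf, amh in DBP and DiBP and gsdf, DMRT1, amh in DBP+DiBP. Relative to CLDN11 (ENSDARG00000020031), a tight junction claudin known from Sertoli cells, amh was at 0.663 in control, 0.549 after DBP, 0.384 after DiBP and 0.194 after both. gsdf relative to the same claudin was at 0.461, 0.991 and 0.808 in control, DBP and DiBP and just under 2.1 in DBP+DiBP. Relative to ALDH1A2, which makes retinoic acid, amh was at 1.09, 0.971, 0.798 and 0.322 in the same order, and gsdf at 0.755, 1.75, 1.68 and 3.49. Relative to the keratin krt18a.1, which was highest in control, amh was at 0.193, 0.802, 0.423 and 0.204, and gsdf at 0.134, 1.45, 0.892 and 2.21. The order for gsdf, lowest in control and highest in DBP+DiBP, was the same against all 3 genes, whereas amh was lowest in control against krt18a.1 and lowest in DBP+DiBP against the other two.

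Downstream of the TGF-beta ligands, the 9 receptors and Smads compared stayed within 2-fold of control on the log2(FPKM + 1) scale. Of the ID genes, ID1 and ID3 each passed 2-fold in 1 exposed library, and ID2 in none. The list held type I and II BMP receptors, the BMP Smads with their partner SMAD4, and the ID genes, which are known BMP targets, since zebrafish lack a clear copy of the receptor specific to amh. Of 12 genes compared, 1 was higher after DBP, 0 after DiBP and 1 after both, and 0 were lower in each. Of all features, 6.68%, 4.60% and 9.57% were higher and 4.50%, 3.86% and 6.42% lower in the same order. Counts this small cannot be told from those shares. The gene higher in DBP was ID1, with 149 FPKM against 49.1 in control (log2 1.58), and it stood at 78.5 in DiBP and 82.8 in DBP+DiBP. The gene higher in DBP+DiBP was ID3, with 35.7 FPKM against 13.6 in control (log2 1.33), and it stood at 24.0 in DBP and 17.7 in DiBP. ID2 was below its control level of 14.3 FPKM in DBP (7.70, log2 -0.82) and DiBP (9.52, log2 -0.54). In DBP+DiBP it was above control, at 27.1 FPKM (log2 0.87). SMAD5, a BMP Smad and the most abundant Smad listed, was at 44.0, 41.9, 40.5 and 32.7 FPKM in control, DBP, DiBP and DBP+DiBP. Both BMPR2 entries stayed under 1 FPKM in every library.

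Among other transcription factors of the gonad, SOX8 ENSDARG00000037782 was above control in all 3 exposures. SOX8, a relative of Sox9 that acts with it in mammalian Sertoli cells, stood at 3.76 FPKM in control, 13.7 after DBP, 8.72 after DiBP and 8.75 after both (ENSDARG00000037782). Its log2 differences were 1.62, 1.03 and 1.03, and they stayed past 2-fold under 3 other scalings. The second SOX8 entry (ENSDARG00000105301) stayed at or under 0.0971 FPKM. Of 11 such genes compared, SOX8 ENSDARG00000037782 was the 1 called in DBP and in DiBP, and GATA6 was called beside it in DBP+DiBP. Of all features, 6.68%, 4.60% and 9.57% were higher in DBP, DiBP and DBP+DiBP. Counts this small cannot be told from those shares. GATA6, a relative of Gata4 that is also used by gut and heart, had 5.97 FPKM in DBP+DiBP, 1.81 in control, 1.71 in DBP and 1.85 in DiBP. NR0B1 (Dax1), a nuclear receptor of the gonad and adrenal, had 5.01, 4.87, 2.19 and 4.12 FPKM in control, DBP, DiBP and DBP+DiBP, lowest in DiBP as WT1 was. Others of this list were lowest in DiBP too, such as GATA5 (1.37 FPKM) and cbx2 (1.56), while ZFPM2 was highest there (2.44). The entries for NR5A1, the steroidogenic factor, stayed at or under 1.08 FPKM in each library.

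Most genes of the ovarian pathway were weak, and WNT4 and FST ENSDARG00000057992 were lower than control in DBP+DiBP, unlike their second copies. Of 8 compared, 1 was higher in DBP (the oocyte ligand GDF9, 2.72 FPKM against 0.795 in control, a call lost under at least 1 other scaling, in a gene that averaged 1 FPKM only through DBP), 0 were called in DiBP, and 2 were lower in DBP+DiBP. The lower ones were WNT4, a ligand of ovarian development in mammals, at 1.81 FPKM against 6.06 in control (log2 -1.33), and the activin antagonist FST (ENSDARG00000057992) at 1.48 against 7.98 (log2 -1.86). Of all features, 6.68% were higher in DBP and 6.42% lower in DBP+DiBP. The ovarian factor FOXL2 (ENSDARG00000068417) stood at 1.94 FPKM in control, 2.45 after DBP, 0.982 after DiBP and 2.48 after both. Gonadal aromatase, CYP19A1, which makes estrogen, stayed between 0.309 and 0.603 FPKM. FOXL2 and aromatase thus reached at most 2.48 FPKM.

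On the log2(FPKM + 1) scale, none of the other Sertoli genes compared came near gsdf in DBP+DiBP. Of 16 compared, 0 were higher and 1 lower in DBP, 0 and 2 in DiBP (krt18a.1 and CLU, the latter lost under at least 1 other scaling), and 2 and 1 in DBP+DiBP, with medians of 0.13, 0.00 and 0.25 against 0.05, -0.01 and -0.11 for all features. Of all features, 6.68%, 4.60% and 9.57% were higher and 4.50%, 3.86% and 6.42% lower in DBP, DiBP and DBP+DiBP. Counts this small cannot be told from those shares. In DBP+DiBP the differences of the 16 genes ran from -1.41 to 1.27, so gsdf at 2.61 lay above them all. Listed rows averaging under 1 FPKM were left out, and some had wider ratios of plain FPKM than gsdf. From control to DBP+DiBP, FSHR went from 0.046 to 0.668 FPKM and shbg from 0.153 to 1.07. Among the rows left out, kitlgb and fgf2 were lower in DBP+DiBP than in control. ALDH1A2 was at 72.8 FPKM in control, 54.2 after DBP, 53.4 after DiBP and 97.4 after both. krt18a.1 was lower in all 3 exposures, at 409 FPKM in control and 65.6, 101 and 154 in DBP, DiBP and DBP+DiBP. The inhibin subunit inha had 4.33, 6.77, 6.42 and 9.21 FPKM in the same order.

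Markers of other tissues differed most in DBP+DiBP, the library with the highest gsdf. All 9 gut genes compared and 8 of 9 liver genes were higher there than in control, although 5 and 3 of them entered the comparison only through that library. Of 9 leukocyte genes 7 were higher, and of 9 stromal and smooth muscle genes 6 were, with medians of 1.55 and 1.36. The background for that library against control was 9.57% of all features past 2-fold upward and 6.42% downward. The median over all features was -0.11. Germ cell genes had 1 of 13 higher and 5 lower, with a median of -0.53, and Leydig cell genes 0 of 9 higher and 3 lower, with a median of -0.63. In DBP and DiBP the gut medians were -0.34 and -0.42. The 5 gut genes that entered through DBP+DiBP averaged under 1 FPKM over the other libraries. These medians therefore rest on low values and cannot be set beside those of all features. The part of these tissue markers in the values of gsdf, amh, DMRT1 and the SOX9 genes was not tested. Cartilage genes, a possible source of SOX9 RNA, summed to between 11.8 and 15.6 FPKM in each library, lowest in DBP+DiBP. That sum mixed directions. From control to DBP+DiBP, COL9A1 went from 6.08 to 2.33 FPKM and COL2A1 ENSDARG00000069093 from 5.98 to 4.73. COL11A2 went from 0.935 to 1.49, COL9A2 from 0.528 to 1.09 and COL2A1 ENSDARG00000011407 from 0.296 to 0.786. Heart markers, a possible source of gata4 RNA, summed to between 1.92 and 3.76 FPKM, with MYL7 at or under 0.308 FPKM. The heart sum also hid differences between its genes. HAND2, which averaged under 1 FPKM, had 1.66 FPKM in DBP+DiBP against 0.176 in control (log2 1.18). The 2 heart genes compared, nppb and TNNT2 (ENSDARG00000020610), were lower in DBP+DiBP than in control (log2 -0.63 and -0.50).

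**Figure D4:**
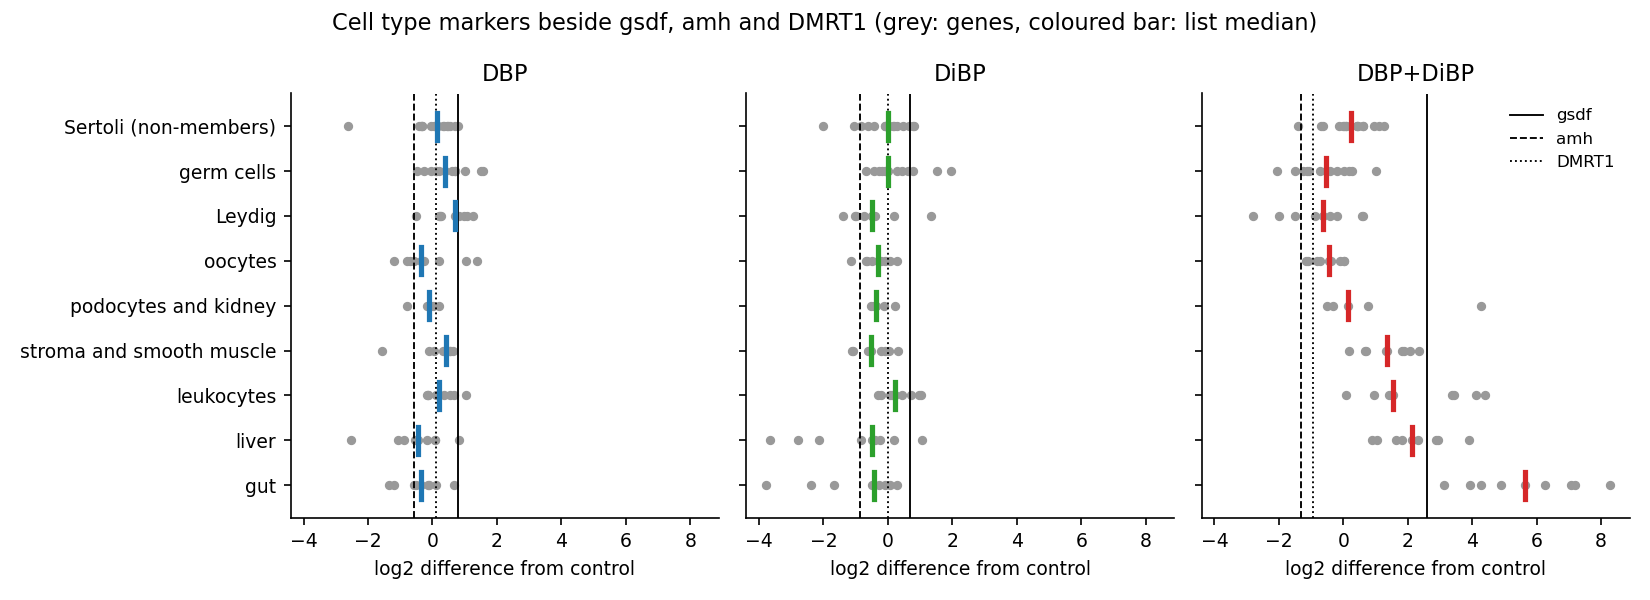
Difference from control in log2(FPKM + 1) of marker genes (grey points), with each list's median (coloured bar), in the DBP, DiBP and DBP+DiBP libraries. Vertical lines give gsdf, amh and DMRT1 in the same library. In DBP+DiBP gsdf lies above all Sertoli and germ cell genes shown and below all 9 gut genes, while amh and DMRT1 lie among the lower germ cell genes.

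The genes whose pattern over the 4 libraries was most like that of each abundant gene were found among 7382 named genes with a mean of at least 5 FPKM, by the distance between log2 profiles centred on their own means. For gsdf they were DIO1, the deiodinase of liver and kidney that activates thyroid hormone (distance 0.154; 4.81, 7.90, 7.18 and 31.6 FPKM in control, DBP, DiBP and DBP+DiBP), COX6A1, a cytochrome oxidase subunit (0.274), and prss59, named as a serine protease (0.279). For amh they were rpp21 (distance 0.092; 18.7, 12.1, 10.49 and 6.86 FPKM), DIMT1 (0.158) and NIFK (0.166). For DMRT1 they were ckap2l (distance 0.042; 26.1, 26.9, 25.4 and 12.9 FPKM), EEF1E1 (0.051) and swi5 (0.052). With 4 libraries many genes share any such profile, and DMRT1 had closer neighbours than amh or gsdf.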

How the data were processed

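The authors deposited 1 value per gene for each of 4 testis libraries, taken as FPKM because the values are not whole and their totals differ; no header or label names the unit. The submitters' processing notes name GRCz10, HISAT2 and HTSeq 0.6.1 without saying what each was used for. The 49610 identifiers comprised 35066 Ensembl genes, of which 26996 had a symbol in the name table, and 14544 assembled loci. Identifiers with identical values were merged and those at 0 throughout dropped, leaving 42683 features. No genome or sequence of this build came with the data, so neither is given.

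Values were used as deposited, on the log2(FPKM + 1) scale, with features averaging at least 1 FPKM (23405) and a 2-fold rule, in Python 3.11.15 with pandas 2.3.3. The rule and the scaling factors were checked on simulated data without noise. That check covers the code and not how the rule behaves at low or noisy values. List genes were matched by symbol, then without copy letter, so a list can hold unintended copies. Named were all members, list genes past 2-fold or given as context, and the 3 nearest profiles of members averaging at least 5 FPKM. Members and lists were chosen with earlier results of these data known. The alternatives were other pseudocounts, scalings, filters and a 1.5-fold line.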

Additional observations from a re-analysis of the deposited data

How the results depend on the processing

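Direction and 2-fold call of gsdf and amh in DBP+DiBP against control were kept in all 9 alternatives, at log2 2.60 to 2.70 and -1.34 to -1.21. WT1 in DiBP against control stayed lower in the 8 alternatives that kept it (-1.42 to -1.02). Filters and the 1.5-fold line leave all these ratios unchanged, so only the pseudocounts and scalings could have moved them. With a mean of at least 5 FPKM required, WT1 drops out and 0 members were lower in DiBP against control. With a pseudocount of 0.1 or none, 2 members were higher in DBP+DiBP against control and 2 against DiBP, the added one being SOX9 ENSDARG00000043923 (1.14 and 1.25 against control), and with none 1 was lower in DiBP against DBP. Shares of all features were not computed at these pseudocounts, so these counts have no background. The added SOX9 gene was also compared only because of DBP+DiBP. The filter kept gata4 and SOX9 ENSDARG00000003293 out of these counts. In plain FPKM gata4 was 2.49, 2.28 and 1.71 times control in DBP, DiBP and DBP+DiBP. SOX9 ENSDARG00000003293 was 3.33, 3.35 and 4.01 times control in the same order. DMRT1 decided the counts that moved with scaling. After median ratio scaling or with equal 75th percentiles, 0 were lower in DBP+DiBP against DBP. With equal totals, 1 was lower in DBP+DiBP against DiBP. At a 1.5-fold line, against control, 1 member was higher in DBP, 1 higher and 2 lower in DiBP, and 2 higher and 2 lower in DBP+DiBP. All features past that line made up 16.9% higher in DBP, 13.2% higher and 12.01% lower in DiBP, and 16.8% and 19.97% in DBP+DiBP. At that line 1 was lower in DiBP against DBP, 2 lower in DBP+DiBP against DBP, and 2 higher and 1 lower against DiBP, beside 12.3%, 27.1%, 17.9% and 23.3% of all features. The member higher beside gsdf in DBP+DiBP was SOX9 ENSDARG00000043923 (log2 0.66 against control and 0.82 against DiBP). Since it was compared only because of DBP+DiBP, it adds nothing to these counts as a result. No called value changed sign. GDF9 in DBP ranged from 0.99 to 1.09 over the scalings, and CLU in DiBP from -1.05 to -0.94. Likewise wnt4b in DiBP ranged from 0.95 to 1.06. In DBP+DiBP dnah9 ranged from 0.99 to 1.09 and DDX4 from -1.08 to -0.97. Requiring the mean without the DBP+DiBP library, an alternative chosen after seeing the data, removed SOX9 ENSDARG00000043923 and moved no count, but took the median in DBP from -0.15 to -0.41 and in DBP+DiBP from -0.31 to -0.57. No paired analysis was possible because each group was 1 library. Depth is unknown, which limits the genes near 1 FPKM most.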

Other observations

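Among signals that Sertoli cells are known to send to germ cells, kitlga stood out on the log2(FPKM + 1) scale. It alone of those given here passed 2-fold in DBP+DiBP against each other library. The share of all features that did so was not computed. GDNF (ENSDARG00000103764), which maintains spermatogonial stem cells in mammals, stood at 4.49 FPKM in control, 8.58 after DBP, 8.37 after DiBP and 4.80 after both, all under 2-fold on the log2(FPKM + 1) scale. The second GDNF entry (ENSDARG00000039959) averaged under 1 FPKM. In plain FPKM it was far higher in DBP+DiBP, at 0.0427, 0.0705, 0.0681 and 0.499 in the same order. The Kit ligand gene kitlga was at 0.987, 0.910, 1.21 and 3.78 FPKM in the same order, past 2-fold in DBP+DiBP (log2 1.27). The other Kit ligand gene, kitlgb, went from 0.167 FPKM in control to 0 in DBP+DiBP. The chemokine CXCL12 was at 2.60, 4.79, 0.996 and 6.68 FPKM in control, DBP, DiBP and DBP+DiBP (log2 1.09 in DBP+DiBP). Leukocyte and stromal markers were also higher in DBP+DiBP, with median log2 differences from control of 1.55 and 1.36, beside -0.11 for all features. Their part in the values of kitlga and CXCL12 was not tested. igf3, a gonadal insulin-like growth factor of fish that promotes spermatogonial differentiation, had 0.953, 1.497, 2.40 and 0.933 FPKM. FSHR, the receptor for follicle-stimulating hormone on Sertoli cells, stayed at or under 0.668 FPKM in every library.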
